A study of Mus musculus with 19 samples.

Results

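The hotspots described here are the autosomal DSB hotspots, in hybrid mice of 2 genotypes, to which no PRDM9 allele had been assigned. They were chosen by their label alone, as every hotspot on the 19 autosomes marked as unknown in the tables of Hum/SPRT and CAST/SPRT, without use of any measured value. Hum/SPRT held 1924 of them among 15727 autosomal hotspots (12.2%, 95% Wilson interval 11.7 to 12.8%), and CAST/SPRT held 958 among 9592 (9.99%, interval 9.40 to 10.6%). Together they make 2882 of the 71181 autosomal hotspots in the 5 tables of the series.

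The animals of both genotypes were B6SPRTF1 hybrids. Females of the inbred strain C57BL/6J (B6), heterozygous for an engineered Prdm9, were crossed to males of SPRET/EiJ (SPRT), an inbred strain of the Algerian mouse M. spretus. Every hybrid therefore carried a B6 and an SPRT copy of each autosome and the Prdm9 allele of SPRT. Hum/SPRT animals carried as their other allele the humanized Prdm9, whose zinc fingers come from the human PRDM9 B allele, and CAST/SPRT animals carried Prdm9 with the zinc fingers of M. musculus castaneus. Whole testis of adult males was used, so a sample mixed cells of different kinds and stages. The paper reports incomplete synapsis and low sperm counts in these hybrids, and the cell composition of the samples was not measured. DMC1 SSDS, which sequences the single-stranded DNA bound by the recombinase DMC1 at resected breaks, was represented by 1 library per genotype. H3K4me3 ChIP-seq had 3 ChIP and 3 input samples for Hum/SPRT and 2 of each for CAST/SPRT, and the tables give 1 value per hotspot over them. The labels number the Hum/SPRT samples 1, 1b and 2, so that they name only 2 replicates, and do not say how 1b relates to 1. The other 3 tables, used here for positions only, were those of B6/SPRT, STUS/B6 and STUS/Hum, where STUS is a M. musculus musculus strain.

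PRDM9 is a histone methyltransferase of early meiotic cells. Its zinc finger array binds DNA motifs that differ between alleles. PRDM9 places H3K4me3 on the nucleosomes around these motifs, and so sets where programmed DSBs form. In a hybrid, a motif present on a single homolog leads to breaks on that homolog, whereas a motif kept on both allows breaks at the same position on either chromosome. When PRDM9 is absent, breaks form instead at promoters and other sites that already carry H3K4me3.

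The authors named the allele behind a hotspot by comparison with mice of other Prdm9 genotypes, and the hotspots without a name are what that comparison left. Recurrence of a position in another mouse is therefore not independent of how these hotspots came to be unassigned, and is given here as a description. The tables distinguish the 2 alleles of each hybrid (HUM or CAST, and SPRET), a small class named KO, whose meaning is not given in the sources used here, and the unassigned class.

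A few of the hotspots had a center in a promoter window of RefSeq (250 bases before to 50 after a gene start, assembly GRCm38.p6). There were 11, of which 8 belonged to Hum/SPRT (of 1924) and 3 to CAST/SPRT (of 958). In Hum/SPRT, 6 windows held a center of the 4485 HUM hotspots and 22 a center of the 9243 SPRET hotspots. In CAST/SPRT, 12 held a center of the 3470 CAST hotspots and 15 a center of the 5123 SPRET hotspots. Such positions were thus few with an allele as well. The upstream sequences of 4 of the 11 unassigned hotspots are printed, chosen after their values were seen, because they differ in which homolog carried the marks and in H3K4me3 enrichment. Each runs 5′ to 3′ on the strand of its gene in the B6 reference, and capitals mark the 13 bases around the hotspot center. Gm41867 (chr19:54761015-54761264, minus strand) and Nipsnap3b (chr4:53011630-53011879, plus strand) were Hum/SPRT hotspots, as was Ermp1 (chr19:29648416-29648665, minus strand), and 4931408D14Rik (chr19:37264096-37264345, minus strand) was a CAST/SPRT hotspot.
Gm41867: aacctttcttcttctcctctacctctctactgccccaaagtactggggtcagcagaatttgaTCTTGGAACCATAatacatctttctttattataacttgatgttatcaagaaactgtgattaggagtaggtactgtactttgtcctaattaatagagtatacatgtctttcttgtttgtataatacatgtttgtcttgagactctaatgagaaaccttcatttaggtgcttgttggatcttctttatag
Nipsnap3b: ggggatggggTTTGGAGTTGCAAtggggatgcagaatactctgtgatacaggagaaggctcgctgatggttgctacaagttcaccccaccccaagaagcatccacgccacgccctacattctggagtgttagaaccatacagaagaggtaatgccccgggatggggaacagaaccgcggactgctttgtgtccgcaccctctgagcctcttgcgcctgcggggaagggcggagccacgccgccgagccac
Ermp1: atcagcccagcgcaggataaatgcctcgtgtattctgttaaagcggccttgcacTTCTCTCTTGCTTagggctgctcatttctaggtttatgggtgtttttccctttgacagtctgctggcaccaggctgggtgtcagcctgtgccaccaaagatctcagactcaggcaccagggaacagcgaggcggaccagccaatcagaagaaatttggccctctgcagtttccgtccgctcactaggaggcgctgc
4931408D14Rik: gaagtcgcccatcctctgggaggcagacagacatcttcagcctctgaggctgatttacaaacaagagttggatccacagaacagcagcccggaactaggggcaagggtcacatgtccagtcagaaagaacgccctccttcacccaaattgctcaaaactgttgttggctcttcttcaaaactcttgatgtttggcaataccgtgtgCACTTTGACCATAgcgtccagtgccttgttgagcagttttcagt
At Gm41867 the upstream sequence held 0 CpG, and 4.32% of DMC1 reads and 12.0% of H3K4me3 reads came from the B6 chromosome, at an H3K4me3 enrichment over input of 2.23. Nipsnap3b, which encodes a member of the NIPSNAP family, held 13 CpG in these bases, and its fractions were 25.6% for DMC1 and 52.9% for H3K4me3, at an enrichment of 19.9. At Ermp1, which encodes an endoplasmic reticulum metallopeptidase, the fractions were 47.4% and 54.8%, at an enrichment of 34.8. The hotspot at 4931408D14Rik gave 65.0% and 62.4%, at an enrichment of 153 on the scale of its own table. The first of these sequences carried both marks mostly on the SPRT chromosome, and the other 3 carried H3K4me3 on both. The 13-base motif known from human PRDM9 hotspots, searched on both strands, was in 1 of the 11 windows, that of Gm41251, and in 6.35% of the 31396 autosomal windows of RefSeq.

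The share of hotspots without an allele was highest on chromosome 19 in both tables and fell with hotspot strength. In Hum/SPRT it lay between 10.7% on chromosome 8 and 15.4% on chromosome 19, and the next highest value was 13.2%. In CAST/SPRT it lay between 8.44% on chromosome 12 and 14.7%, again on chromosome 19, with 11.7% next. The X chromosome had a lower share than any autosome, with 39 of 671 hotspots (5.81%) in Hum/SPRT and 19 of 496 (3.83%) in CAST/SPRT. In these males the X is unpaired over most of its length and came from the B6 mother, so it had no SPRT copy. The part of either in the lower share was not tested.

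Heat is the strength that the authors' caller gave each hotspot from DMC1 reads, on a scale whose relation to depth is not stated. In Hum/SPRT 140 of the 230 hotspots with a heat under 10 had no allele (60.9%, interval 54.4 to 66.9%), against 18.4% at a heat of 10 to 20, 12.7% at 20 to 50, 9.53% at 50 to 100 and 6.01% at 100 and over. The shares of CAST/SPRT over the same ranges were 14.8, 10.9, 9.61, 8.26 and 7.67%. Their intervals overlapped between neighboring ranges, with 7.05 to 9.65% at a heat of 50 to 100 and 5.36 to 10.9% at 100 and over. The weakest hotspots of Hum/SPRT were thus mostly unassigned, and the share fell from each range to the next in both tables.

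**Figure D1:**
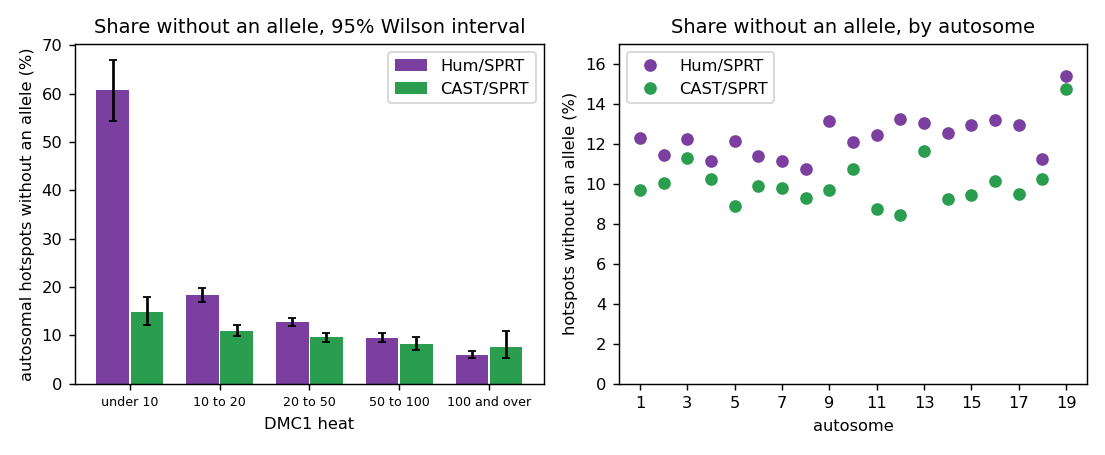
Share of autosomal hotspots without an allele, in percent, by DMC1 heat (left, bars with 95% Wilson intervals) and by autosome (right, 1 point per autosome) in Hum/SPRT (purple) and CAST/SPRT (green). The bar for a heat under 10 in Hum/SPRT reaches 60.9%, and chromosome 19 has the highest point of both genotypes.

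Hotspots without an allele were weaker than the assigned ones in Hum/SPRT and little different in CAST/SPRT. In Hum/SPRT their median heat was 27.5 (quartiles 17 and 55.9, highest 398), against 33.8 for HUM hotspots, 55.0 for SPRET hotspots and 14.1 for KO hotspots. Their median was 0.601 of that of all hotspots with an allele, and was lower on 19 of 19 autosomes. For CAST/SPRT the median heat was 23.7 (quartiles 14.3 and 42.2, highest 269), against 25.1 for CAST hotspots, 27.6 for SPRET hotspots and 13.1 for KO hotspots. The ratio was 0.894, and the median was lower on 14 of 19 autosomes. The quartile ranges overlapped widely with those of assigned hotspots in both tables. The unassigned hotspots held 8.29% of the summed heat in Hum/SPRT and 9.26% in CAST/SPRT.

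H3K4me3 enrichment is the authors' measure of ChIP signal relative to input at a hotspot, and its scale is read only within a table. Its formula is not given, and it is not the plain ratio of the listed coverages. In Hum/SPRT, ChIP and input coverages of 31770 and 1216 went with an enrichment of 31.1 at chromosome 17 position 39848513. At Nipsnap3b, coverages of 1462 and 37 went with 19.9. In Hum/SPRT the median at hotspots without an allele was 3.65 (quartiles 2.08 and 6.07), against 5.84 at HUM and 4.96 at SPRET hotspots. In CAST/SPRT it was 22.2 (quartiles 12.8 and 33.6), against 35.2 at CAST and 26.0 at SPRET hotspots. The median was lower than that of hotspots with an allele on 19 of 19 autosomes in both tables. KO hotspots had the lowest values, 0.514 and 1.59.

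At equal heat, however, the unassigned hotspots carried about as much H3K4me3 as SPRET hotspots from a heat of 20 upward. In Hum/SPRT the median enrichment at a heat of 20 to 50 was 3.73, against 3.86 at SPRET and 5.51 at HUM hotspots. At a heat of 100 and over it was 6.98, against 7.07 and 9.15. At a heat of 20 to 50 the corresponding medians of CAST/SPRT were 25.2 without an allele, 27.2 at SPRET and 38.1 at CAST hotspots, and at 100 and over 35.1, 34.5 and 54.9. The engineered allele had the highest median of the 3 in every range of heat in both tables. Under a heat of 10, the 140 hotspots of Hum/SPRT had a median enrichment of 0.505, below HUM (2.04) and SPRET (1.68) and above the 5 KO hotspots (0.383). The 82 of CAST/SPRT had 7.98, against 18.5 at CAST, 15.8 at SPRET and 2.07 at the 9 KO hotspots of that range.

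**Figure D2:**
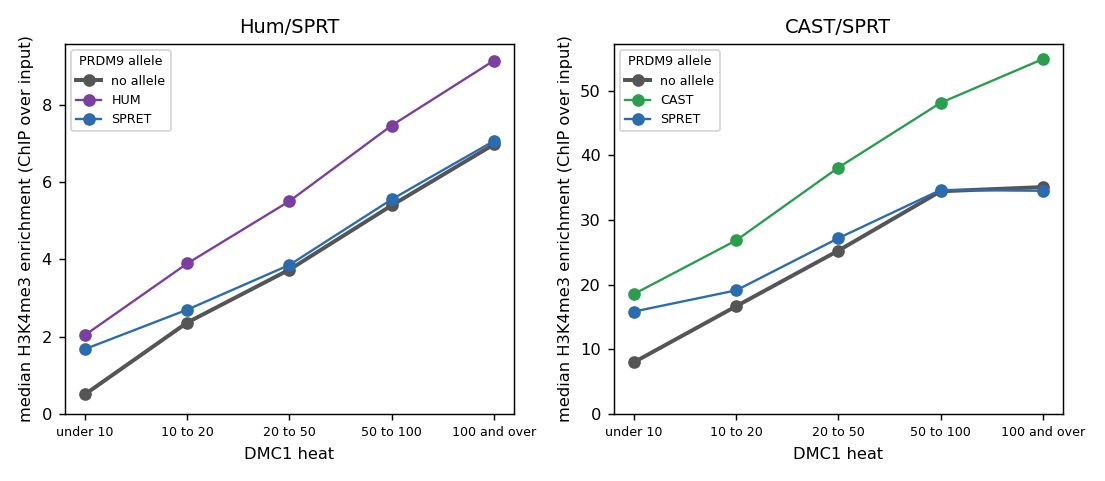
Median H3K4me3 enrichment (the authors' measure relative to input, not comparable between the panels) in 5 ranges of DMC1 heat for hotspots without an allele (gray), of the engineered allele (HUM purple, CAST green) and of SPRET (blue). The gray line follows the blue one from a heat of 20 upward and lies below it at a heat under 10, where the medians are 0.505 and 1.68 in Hum/SPRT.

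Breaks at hotspots without an allele lay more often on the SPRT chromosome than on the B6 chromosome, whereas SPRET hotspots lay mainly on B6 and HUM and CAST hotspots had medians near the middle. The B6 fraction of DMC1 reads is the share of reads that SNPs place on the B6 homolog. It was listed for 1118 of the 1924 hotspots in Hum/SPRT and for 565 of the 958 in CAST/SPRT, and the number of reads behind it is not given, so its depth is unknown. The median was 20.1% in Hum/SPRT, against 55.6% at HUM and 87.6% at SPRET hotspots, and 11.1% in CAST/SPRT, against 50% at CAST and 95.1% at SPRET hotspots.

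A fraction under 25% was found at 623 of the 1118 (55.7%, interval 52.8 to 58.6%) in Hum/SPRT, where 16.9% of all autosomal hotspots with a fraction were that low, with 18.6% of HUM and 10.3% of SPRET hotspots. In CAST/SPRT it was found at 343 of the 565 (60.7%, interval 56.6 to 64.6%), against 14.9% of all hotspots, 18.5% of CAST and 6.59% of SPRET hotspots. By autosome this share ran from 42.9 to 68.1% in Hum/SPRT and from 48.5 to 79.4% in CAST/SPRT. It was above the share of either assigned allele on 19 of 19 autosomes in both tables. Fractions under 5% were found at 118 hotspots in Hum/SPRT (10.6%, against 2.67% of HUM and 1.51% of SPRET hotspots) and at 178 in CAST/SPRT (31.5%, against 5.83% of CAST and 1.86% of SPRET hotspots).

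Matched hotspots, with 25 to 75% of DMC1 reads from B6, were correspondingly few. There were 267 in Hum/SPRT (23.9%, against 33.6% of all hotspots and 43.3% of HUM hotspots) and 89 in CAST/SPRT (15.8%, against 32.7% of all hotspots and 54.3% of CAST hotspots). Fractions over 75% were found at 228 (20.4%, against 49.5% of all) and 133 (23.5%, against 52.4% of all). Most unassigned hotspots with a listed DMC1 fraction thus stood at the SPRT end, and a smaller group of them stood at the B6 end.

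H3K4me3 was also placed more often on the SPRT chromosome than at assigned hotspots. This fraction was listed for 1860 hotspots in Hum/SPRT and 928 in CAST/SPRT, at medians of 324 and 204 SNP-carrying reads per hotspot. In Hum/SPRT the median fraction was 34.2%, against 60.2% at HUM and 69.2% at SPRET hotspots, with 35.0% of the hotspots under 25%, 52.8% matched and 12.2% over 75%. Over all autosomal hotspots of that table these shares were 9.50, 55.1 and 35.4%. In CAST/SPRT the median was 19.4%, against 56.5% at CAST and 83.2% at SPRET hotspots, with 55.1% under 25%, 30.7% matched and 14.2% over 75%, against 13.2, 47.8 and 39.0% over all hotspots.

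Counting error was small beside these differences. The 95% Wilson interval of the H3K4me3 fraction lay wholly below 50% at 1127 hotspots without an allele in Hum/SPRT (60.6%) and wholly above it at 492 (26.5%), against 21.1 and 65.3% of all autosomal hotspots. In CAST/SPRT it lay below at 611 (65.8%) and above at 232 (25%), against 20 and 63.8%. These intervals cover counting error only.

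**Figure D3:**
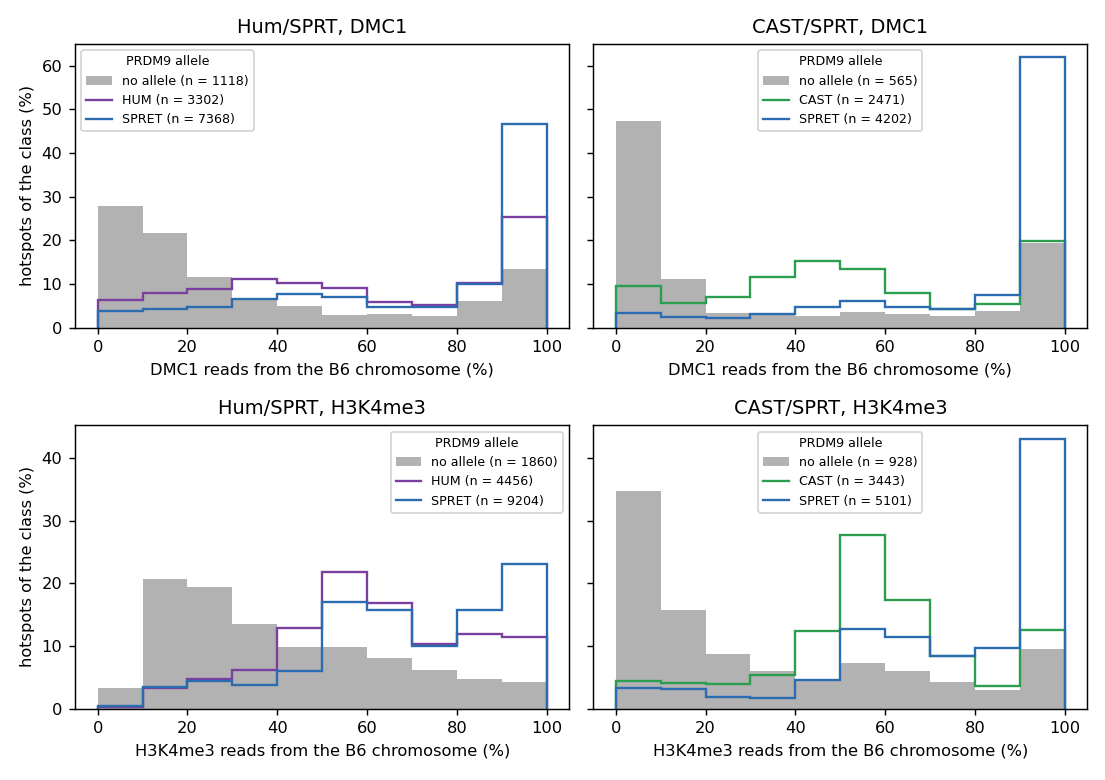
Percent of hotspots of each class in 10-point ranges of the B6 fraction of DMC1 reads (top) and of H3K4me3 reads (bottom) in Hum/SPRT (left) and CAST/SPRT (right), for hotspots without an allele (gray fill), of the engineered allele (purple or green line) and of SPRET (blue line). The gray fill is highest at the left end for DMC1, with 27.9% of hotspots under 10% in Hum/SPRT and 47.4% in CAST/SPRT, where SPRET hotspots (blue) have 3.83 and 3.38%.

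At single hotspots the 2 marks gave similar fractions. Of the 1118 with both in Hum/SPRT, 442 (39.5%) were under 25% by both, 227 (20.3%) matched by both and 166 (14.8%) over 75% by both. A further 180 (16.1%) were under 25% by DMC1 and matched by H3K4me3. Of the 563 with both in CAST/SPRT the counts were 313 (55.6%), 79 (14.0%) and 113 (20.1%), with 28 (4.97%) under 25% by DMC1 and matched by H3K4me3. No hotspot of either table went from over 75% by DMC1 to under 25% by H3K4me3, and 1 in each went the other way. Across hotspots Spearman's rho was 0.845 (n = 1118) and 0.850 (n = 563), given as a description, since hotspots of a library share its depth and its SNP set.

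Hotspots for which no DMC1 fraction was listed were more frequent without an allele than with HUM, CAST or SPRET. It was missing for 806 in Hum/SPRT (41.9%, against 25% of all autosomal hotspots) and for 393 in CAST/SPRT (41.0%, against 24.5%). Their H3K4me3 fraction had a median of 37.0% in Hum/SPRT, with 69.1% of them matched, and of 23.4% in CAST/SPRT, with 43.6% matched. Among the hotspots with a DMC1 fraction, 41.9 and 22.4% were matched by H3K4me3. The matched shares by DMC1 thus leave out hotspots that H3K4me3 places more often on both homologs.

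Most of the unassigned positions were seen in their own library only. With centers taken as the same within 500 bp, 182 of the 1924 hotspots of Hum/SPRT (9.46%) had a counterpart in CAST/SPRT, against 34.5% of all Hum/SPRT hotspots. Of these, 115 were unassigned there too and 67 carried SPRET, and none carried CAST or KO. In the other direction 282 of the 958 hotspots of CAST/SPRT (29.4%) had a counterpart in Hum/SPRT, against 56.5% of all CAST/SPRT hotspots, and 115 of them were unassigned there, 167 carried SPRET and none carried HUM or KO. The 115 shared positions make 5.98% of the Hum/SPRT list and 12.0% of the CAST/SPRT list. Split by allele, 56.2% of SPRET and 0.290% of HUM hotspots of Hum/SPRT had a counterpart in CAST/SPRT. In the other direction 99.5% of SPRET and 0.375% of CAST hotspots had one. The unassigned shares thus lay below those of the SPRET allele, which both hybrids carry, and above those of the engineered alleles. In Hum/SPRT, 13 of 4485 HUM hotspots and none of 9243 SPRET hotspots had a CAST counterpart, and only KO hotspots had a KO one (29 of 75). The lack of CAST, HUM and KO counterparts was thus not particular to the unassigned hotspots. An unassigned counterpart was found for 1.81% of SPRET hotspots of Hum/SPRT and 1.31% of those of CAST/SPRT, and for no HUM or CAST hotspot. Windows of this size around all centers cover 0.658% of the span of Hum/SPRT hotspots and 0.403% of that of CAST/SPRT hotspots.

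The positions that carried SPRET in the other hybrid were a small share of its SPRET hotspots. The 167 of CAST/SPRT are 17.4% of the unassigned list and 1.81% of the SPRET hotspots of Hum/SPRT, and the 67 of Hum/SPRT are 3.48% of theirs and 1.31% of the SPRET hotspots of CAST/SPRT. The 167 had a median heat of 97.0 as SPRET hotspots of Hum/SPRT, against 55.0 for that whole list, and the 67 had 28.4 as SPRET hotspots of CAST/SPRT, against 27.6 for that list. Of the 121 with a DMC1 fraction in both tables, 93 differed by at most 10 percentage points.

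Extended to the other 3 tables, 526 hotspots of Hum/SPRT (27.3%) and 322 of CAST/SPRT (33.6%) had a counterpart anywhere, against 83.8 and 65.6% of all hotspots of their tables. By allele, 99.9% of SPRET and 74.8% of HUM hotspots of Hum/SPRT did so, and 5122 of 5123 SPRET hotspots and 23.3% of CAST hotspots of CAST/SPRT. In B6/SPRT, 294 of the Hum/SPRT hotspots were unassigned and 86 carried SPRET, and the overall share of counterparts, 19.8%, compared with 61.5% for all hotspots. In STUS/Hum, 132 were unassigned and 49 carried HUM (9.41% in all, against 22.9%). In STUS/B6, 47 were unassigned, 11 carried STUS and 9 carried B6 (3.48%, against 1.46%). Of the CAST/SPRT hotspots, 93 were unassigned and 176 carried SPRET in B6/SPRT (28.1%, against 56.5%), 40 were unassigned and 36 carried STUS in STUS/B6 (7.93%, against 9.43%), and 27 were unassigned and 18 carried STUS in STUS/Hum (4.70%, against 5.77%). Of the Hum/SPRT hotspots without an allele, 3 were unassigned in each of the other 4 tables, where STUS/B6 held a counterpart of 1.46% of all Hum/SPRT hotspots. No HUM hotspot had an unassigned counterpart in CAST/SPRT, and no SPRET hotspot had one in STUS/B6.

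**Figure D4:**
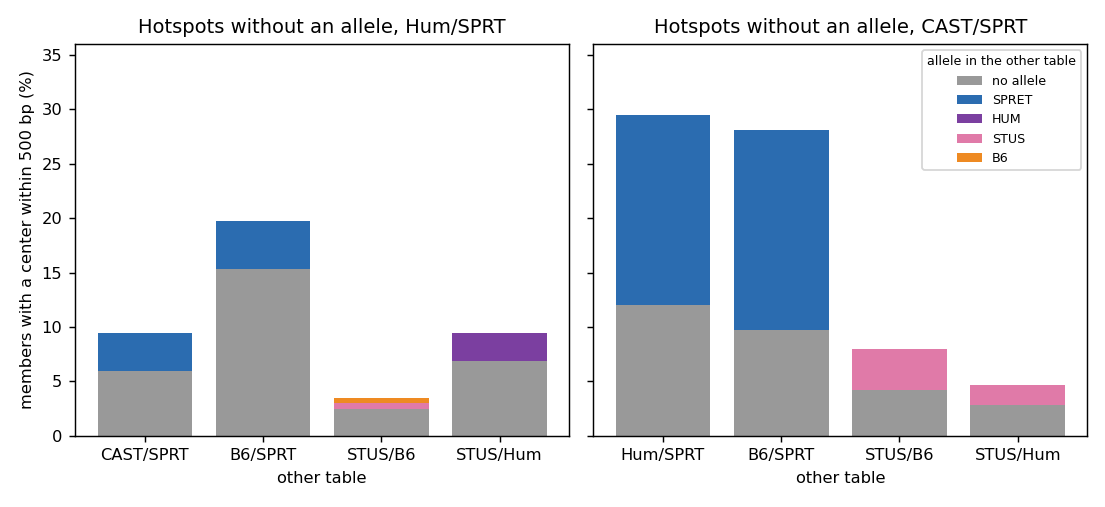
Percent of the hotspots without an allele of Hum/SPRT (left, 1924) and CAST/SPRT (right, 958) with a hotspot center within 500 bp in each of the other 4 tables, with bars split by the allele that center carries there. The bars are highest between hybrids that share the SPRET allele, 19.8% for Hum/SPRT in B6/SPRT and 29.4% for CAST/SPRT in Hum/SPRT.

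The hotspots seen in 1 library and those that recurred differed in which homolog was cut. In Hum/SPRT the 1398 found in no other table (72.7%) had a median B6 fraction of DMC1 reads of 13.2%, and 563 of the 759 with a fraction (74.2%) were under 25%. The 526 found elsewhere had a median of 79.2%, and 60 of 359 (16.7%) were under 25%. In CAST/SPRT the 636 found in no other table (66.4%) had a median of 5%, with 317 of 345 (91.9%) under 25%, and the 322 found elsewhere had a median of 87.1%, with 26 of 220 (11.8%) under 25%. Of the hotspots under 25%, 563 of 623 and 317 of 343 were thus found in no other table, whereas those that recurred lay mostly on the B6 side, as SPRET hotspots did.

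H3K4me3 divided them in the same way. Its median B6 fraction was 26.4% at the hotspots not found elsewhere and 65.0% at the others in Hum/SPRT, and 10.1 and 67.5% in CAST/SPRT. Heat and enrichment differed less than the fractions did. The median heat was 25.2 for those not found elsewhere and 35.5 for the others in Hum/SPRT, and 23.3 and 24.4 in CAST/SPRT. Median enrichment was 3.27 and 6.21 in Hum/SPRT, and 20.1 and 28.4 in CAST/SPRT.

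**Figure D5:**
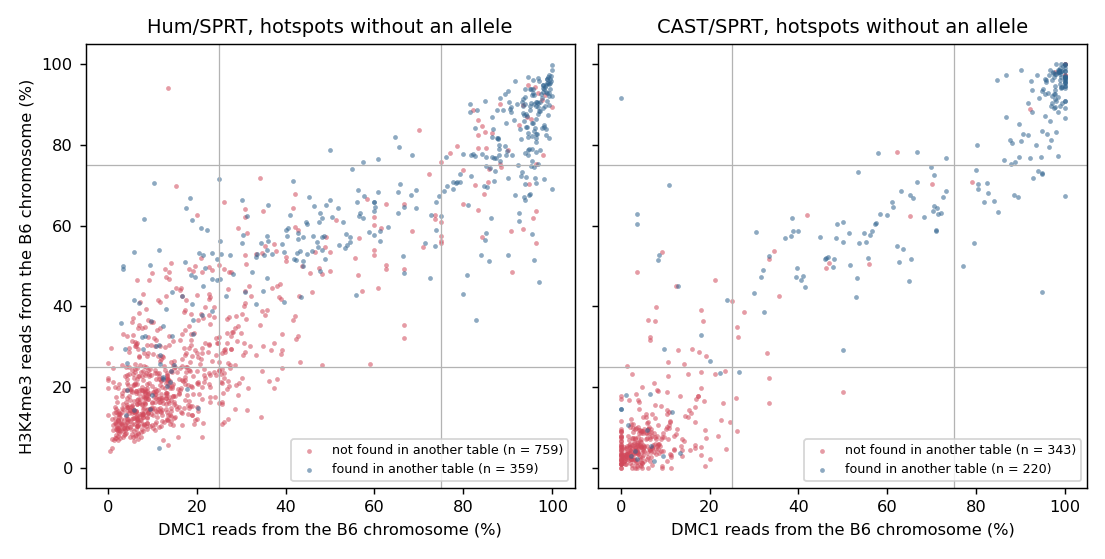
B6 fraction of DMC1 reads (x axis, percent) against that of H3K4me3 reads (y axis, percent) for each hotspot without an allele that has both, in Hum/SPRT (left) and CAST/SPRT (right), with gray lines at 25 and 75%. Hotspots not found in another table (red) fill the lower left corner, 429 of 759 in Hum/SPRT and 298 of 343 in CAST/SPRT. Of those found in another table (blue), the upper right corner holds 141 of 359 in Hum/SPRT and 107 of 220 in CAST/SPRT.

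The weakest hotspots of Hum/SPRT did not share the pattern. Among those not found elsewhere, the share under 25% by DMC1 was 4 of 51 (7.84%) at a heat under 10, then 57.9% at 10 to 20, 83.9% at 20 to 50, 96.9% at 50 to 100 and 95.9% at 100 and over. Their median fraction fell from 60% in the weakest range to 2.95% in the strongest. In CAST/SPRT the share was 75% (12 of 16) in the weakest range and between 90.3 and 100% above it. Among all unassigned hotspots of a heat of 100 and over, recurrent ones included, the median fraction was 42.8% in Hum/SPRT, with 44.4% of 135 under 25%, and 55.4% in CAST/SPRT, with 35.7% of 14 under 25%. The strongest hotspots without an allele thus did not lie mainly on the SPRT chromosome, although those of them that recurred nowhere did.

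Hotspots unassigned here that carried SPRET or HUM in another table were stronger than those found nowhere else, with medians of 25.2 for Hum/SPRT and 23.3 for CAST/SPRT, and those that carried only STUS or B6 were not. In Hum/SPRT, 63 carried SPRET alone elsewhere, with a median heat of 111 and a median DMC1 fraction of 93.9%, and 26 carried HUM alone, with 77.9 and 75.3%. The 11 that carried STUS had a median heat of 22.3, and the 9 that carried B6 had 22.4. A group of 23 carried HUM in STUS/Hum and SPRET in another hybrid with SPRT. Its median heat was 169, the highest of these groups, its median enrichment was 9.35, and its median fraction was 87.4%, with 8 of 22 matched and 13 over 75%. These are positions where hotspots of both alleles of the hybrid had been called in other mice. In CAST/SPRT, 153 carried SPRET alone, with a median heat of 34.1 and a fraction of 87.1%, 33 carried SPRET and STUS, with 30.8 and 89.4%, and 10 carried STUS alone, with 15.6 and 64.0%.

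Positions unassigned in both hybrids had close B6 fractions in each, and as a group stood high by heat in 1 list and low in the other. The 115 pairs lay a median of 105 bp apart, and their median heat was 66.3 in Hum/SPRT and 15.9 in CAST/SPRT, against 27.5 and 23.7 for the whole lists. For the 65 pairs with a DMC1 fraction in both, the medians were 95.2 and 95.5%, and 56 pairs (86.2%) differed by at most 10 percentage points. They were strong for unassigned hotspots of Hum/SPRT and weak for those of CAST/SPRT, and most were cut on the B6 chromosome in both.

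The strongest hotspots show each of these kinds, with chromosome 18 not considered for single positions. The strongest in Hum/SPRT, at chromosome 9 position 123178057 (mm10, inside Cdcp1, which encodes a transmembrane glycoprotein), had a heat of 398 and B6 fractions of 98.9% for DMC1 and 96.3% for H3K4me3. It recurred without an allele 148 bp away in CAST/SPRT, with a heat of 107 and fractions of 98.0 and 97.6%. The strongest on the SPRT side in Hum/SPRT, at chromosome 7 position 3397777 (inside Cacng8, an auxiliary subunit of AMPA receptors), had a heat of 375 and fractions of 0.933 and 12.1%, and was found in no other table. Its counterpart in kind in CAST/SPRT, at chromosome 12 position 31746996 (inside Cog5, a subunit of the Golgi complex COG), had a heat of 134 and fractions of 0.896 and 3.11%, and also recurred nowhere. The first hotspot was thus cut on B6 in both hybrids, and the other pair on SPRT in a single hybrid each.

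The strongest matched hotspot of Hum/SPRT, at chromosome 17 position 65051866 (28.5 kb from the nearest gene, the lncRNA Gm35228), had a heat of 396 and fractions of 56.8 and 63.1%. It carried SPRET in CAST/SPRT and B6/SPRT and HUM in STUS/Hum. The hotspot at chromosome 4 position 63359288, inside Orm3, an acute-phase plasma protein gene, had a heat of 328 and fractions of 84.7 and 69.8%. A SPRET hotspot of CAST/SPRT lay 3 bp away, with a heat of 101.4 and a DMC1 fraction of 97.7%, and a HUM hotspot of STUS/Hum lay 72 bp away. Both are among the 23 positions with HUM and SPRET elsewhere.

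In CAST/SPRT the strongest hotspot outside chromosome 18 lay at chromosome 4 position 155898445 (inside Acap3, which encodes a GTPase-activating protein for Arf). It had a heat of 195, no listed DMC1 fraction and an H3K4me3 fraction of 19.5% (interval 12.2 to 29.7%, 77 reads). The highest heat of that list, 269, was on chromosome 18 and is not described. The strongest on the B6 side, at chromosome 1 position 20550972 (inside Pkhd1, the fibrocystin gene), had a heat of 115 and fractions of 97.6 and 94.7%, and carried SPRET elsewhere. The strongest matched one, at chromosome 13 position 118666515, had a heat of 126 and fractions of 64.8 and 46.2%, and was unassigned where it recurred. Its counterpart in Hum/SPRT, 144 bp away, had a DMC1 fraction of 12.5%. The hotspot whose SPRET counterpart in Hum/SPRT was strongest lay at chromosome 10 position 7646916 (inside Pcmt1, which encodes an enzyme of protein repair), with a heat of 116 and a DMC1 fraction of 40.5%. That counterpart, 12 bp away, had a heat of 425 and a fraction of 32.4%. Outside chromosome 18, the order by heat was thus led by a different kind of hotspot in each table.

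Hotspots without an allele lay near gene starts slightly more often than others in Hum/SPRT. There, 50 (2.60%, interval 1.98 to 3.41%) were within 1 kb of a start, against 1.64% of all autosomal hotspots, 1.36% of HUM and 1.56% of SPRET hotspots. In CAST/SPRT there were 19 (1.98%, interval 1.27 to 3.08%), against 1.67% of all, and the interval held that value. H3K4me3 was higher near a start, with a median enrichment of 7.19 against 3.62 farther away in Hum/SPRT and of 51.3 against 21.9 in CAST/SPRT. SPRET hotspots gave 6.58 against 4.94 and 33.3 against 25.9. The hotspots of largest enrichment, that of Ermp1 in Hum/SPRT (34.8, 0.19 kb from the start) and that inside Slc35b4, a nucleotide sugar transporter gene, in CAST/SPRT (247, chromosome 6 position 34176671, 0.377 kb from the start), had heats of only 10.2 and 13.4. Apart from gene starts, 62.2 and 63.0% of the hotspots lay inside a gene, against 66.4% of HUM, 63.9% of CAST and, in the 2 tables, 60.9 and 61.0% of SPRET hotspots. The nearest hotspot with an allele in the same table was a median of 48.4 kb away in Hum/SPRT and 82.2 kb in CAST/SPRT, with 3 and 2 of them within 1 kb.

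Input coverage was unusual at some of these hotspots. In Hum/SPRT 19 (0.988%) had an input of at least 3 times the table's median of 26.0, against 0.0446% of HUM, 0.0974% of SPRET and 6 of 75 KO hotspots, and 90 (4.68%) had at most 50% of that median, against 1.14% of HUM, 0.682% of SPRET and 40 of 75 KO hotspots. In CAST/SPRT there were 1 (0.104%) and 19 (1.98%), against 0.548% of CAST and 0.449% of SPRET hotspots with an input that low. Low input was thus more frequent without an allele than with HUM, CAST or SPRET in both tables, as was high input in Hum/SPRT, and both were more frequent still in the KO class. The highest inputs were 1216 and 1186, at chromosome 17 positions 39848513 and 39843071 in Hum/SPRT, where ChIP coverage was 31770 and 14884. Without the hotspots of high input the enrichment ratio of Hum/SPRT stayed at 0.694, and the part of input coverage in the other results was not tested.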

How the data were processed

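Testis DMC1 SSDS (1 library per genotype) and H3K4me3 ChIP-seq with input were deposited for B6SPRTF1 hybrids. Per the labels, reads were aligned with BWA to mm10. The authors kept single-stranded fragments, called hotspots de novo in each library, named the PRDM9 allele of a hotspot from mice of other genotypes, and used SNPs to tell the homolog of a read. Each genotype has 1 deposited table, matched here by the alleles it names. It holds a DMC1 signal (heat), whose scaling to depth is not stated, and the fraction of DMC1 reads from B6, without read numbers. For H3K4me3 the deposited values are coverage counts (whole numbers) for ChIP and for input, an enrichment value whose formula is not given in the sources used here, and a B6 fraction with its SNP-carrying reads, listed from 10 reads upward. With 1 column each, they were read as pools of a genotype's samples. Over the hotspots without an allele, ChIP and input coverage summed to 563052 and 53970 in Hum/SPRT and to 147936 and 27205 in CAST/SPRT. Another 20 columns of values (p-values, a sharing mark and the like) were not used.

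Counts, shares, medians and 95% Wilson intervals were computed on 19 autosomes with Python 3.11.15, numpy 2.4.6, pandas 2.3.3 and scipy 1.17.1, and plots were drawn with matplotlib 3.10.9. Genes and promoter sequences were those of RefSeq, GRCm38.p6. The matched range was 25 to 75%. With 1 library and 1 pooled H3K4me3 column per genotype no test between genotypes was made, heat and enrichment were not compared in size between tables, and intervals cover counting error only. The functions for distances and intervals were tested on simulated data. Named positions were, per table, those with the largest heat, the largest enrichment and the largest heat in each range of the DMC1 fraction, the pair without an allele in both tables with the largest geometric mean of heats, and, for each allele carried in the other table, the hotspot whose match there was strongest. The hotspots, lists and rules were chosen with earlier results of these data known.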

Additional observations from a re-analysis of the deposited data

How the results depend on the processing

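Of 52 alternative values for 16 results, 25 stayed within the 95% interval of the reported value, and the rest are given here, Hum/SPRT first. The share of hotspots without an allele was 8.29 and 9.26% weighted by heat and 10.02 and 9.12% at a heat of at least 20. The enrichment ratio to assigned hotspots was 0.825 in Hum/SPRT as the mean over 5 bins of equal heat. The matched share by DMC1 was 59.0 and 33.6% at limits of 10 and 90%, 8.23 and 6.37% at 40 and 60%, and 13.9 and 9.29% with missing fractions counted as unmatched. In Hum/SPRT it was 19.1% weighted by heat and 17.3% at a heat of at least 20, a limit added after seeing the data. The share on the SPRT side was 27.9 and 47.4% with the limit at 10%, 67.3 and 65.1% at 40%, and 61.2 and 56.5% at a heat of at least 20. Weighted by heat it was 55.9% in CAST/SPRT. It stayed above the shares of both assigned alleles under each of these. The matched share by H3K4me3 was 92.5 and 55.8% at 10 to 90%, and 39.6% in CAST/SPRT weighted by enrichment. Recurrence in the other table was 7.06% in Hum/SPRT at a heat of at least 20 on both sides and 26.0% in CAST/SPRT within 250 bp. Near gene starts the share was 5.25 and 4.07% within 2 kb. The heat ratio stayed within its interval under each alternative.

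No paired analysis was possible because each genotype has 1 DMC1 library and 1 pooled H3K4me3 column. For the same reason no replicate was left out, and no error between mice is known. Windows of 200 and 300 bases around hotspot centers were not run, since no genome sequence was used here. The DMC1 fraction comes without read numbers, so its precision at single hotspots is unknown.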
